A study of Mus musculus with 30 samples.

Results

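Regulatory T cells restrain other immune cells, and their identity is set by the transcription factor Foxp3, which is switched on in a small share of CD4 cells in the thymus and kept on in the periphery. Cells of this lineage carry a known group of further transcripts. They encode 2 Ikaros-family partners of Foxp3, inhibitory and cytokine-presenting surface proteins, and receptors used to mark the cells. Prmt5, the gene deleted here, encodes the enzyme that places symmetric dimethyl marks on arginines of histones, splicing proteins and other substrates.

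Described here are 9 genes, chosen by name as a list of regulatory T cell genes: Foxp3, Ikzf2, Ikzf4, Ctla4, Lrrc32, Nrp1, Izumo1r, Gpr83 and Capg. All 9 were found by symbol in each of the 3 deposited count tables, which list 21983 symbols (thymus double-positive and CD4 single-positive cells) or 46095 symbols (the spleen table, and the table of thymus CD8 single-positive cells). All 9 also had enough reads to be tested in every comparison.

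The study sequenced poly(A) RNA in bulk from T cells that were sorted by flow cytometry from C57BL/6 mice. Wild type mice (WT) were compared with conditional knockout mice (CKO), whose genotype label is CD4-Cre+ PRMT5fl/fl. CD4-Cre is active from the double-positive stage of the thymus onward, so the deletion is aimed at CD4 cells, CD8 cells and regulatory T cells. How far it went in regulatory T cells was not measured. With no Cre-only group, what Cre does by itself and what loss of Prmt5 does cannot be told apart. The 30 libraries cover 5 populations with 3 mice per genotype in each: thymus double-positive (DP), CD4 single-positive (CD4 SP) and CD8 single-positive (CD8 SP) cells, and spleen CD4 and CD8 cells. Mouse ages were not given in the sources used here, and regulatory T cells were not sorted apart, so every value is an average over a whole population. In such bulk samples fewer cells of a type and less RNA per cell cannot be told apart.

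The libraries held 11865646 to 35353441 gene counts each, and levels are given as CPM, the count scaled to a library of 1000000 counts. The targeted transcript was lower in all 3 CKO libraries than in all 3 WT libraries of each population, with CKO means between 0.472 of the WT mean in thymus DP and 0.810 in thymus CD8 SP. Most libraries carried the coreceptor transcripts of their label, with Cd4 at 860 to 982 CPM in spleen CD4 and Cd8a at 1077 to 1501 CPM in spleen CD8. Thymus CD4 SP libraries also held Cd8a and other transcripts of the DP stage. Their Cd8a level was 1134 to 1543 CPM in WT, and 2207, 43.4 and 967 CPM in CKO 14, 17 and 23 (the numbers are those of the mice in the labels). Summed DP-stage markers (10 genes) ran from 4239 to 6765 CPM in WT and from 544 to 8928 CPM in CKO, lowest in CKO 17 and highest in CKO 14. In thymus CD8 SP the same sum was 3712 to 3976 CPM in WT and 3949 to 4347 CPM in CKO, beside mature-stage markers (10 genes) of 1096 to 1239 and 985 to 1020 CPM. The DP-stage list includes Cd8a and Cd8b1, which CD8 cells carry too. In spleen CD8 its sum was 1921 to 2223 CPM in WT and 1957 to 2486 CPM in CKO. Sex, read from the Y-linked gene Ddx3y, was mixed in the thymus. WT 18 and CKO 17 were the males among DP and CD4 SP, and in thymus CD8 SP all 3 WT and 1 of 3 CKO mice were male, while the spleen libraries were all female.

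The genes lie on 7 chromosomes of the build GRCm38, and their start regions differ in base composition. Foxp3 (X, 7573644 to 7595245, plus strand) overlaps Flicr on its own strand and Ppp1r3f, Gm36995 and Ccdc22 on the other. The setting for strand in the authors' counting was not given in the sources used here, so counts of Foxp3 and of these neighbours may not be fully separate. Ctla4 (60887000 to 60915832, plus) and Ikzf2 (69531214 to 69687245, minus) are both on chromosome 1. Gpr83 (14860210 to 14870789, plus) and Izumo1r (14885814 to 14903949, minus) are neighbours on chromosome 9. Nrp1 is on chromosome 8 (128358604 to 128503363, plus), Lrrc32 on chromosome 7 (98489283 to 98502181, plus), Capg on chromosome 6 (72544391 to 72562983, plus) and Ikzf4 on chromosome 10 (128630843 to 128645991, minus).

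RefSeq start regions for GRCm38 were matched for 6 of the 9 genes, in 7 windows of 250 bases upstream, with none for Ikzf2, Ikzf4 and Lrrc32. Shown are 4 of them, 2 from genes that fell in CKO spleen CD4 cells (Ctla4 and Nrp1) and 2 from genes that gave no call there (Foxp3 and Gpr83). Each is printed 5′ to 3′ on the plus strand, with CG dinucleotides, the usual sites of DNA methylation, in capitals. The positions are chrX:7579426-7579566 for Foxp3, chr1:60908775-60909024 for Ctla4, chr8:128358823-128359072 for Nrp1 and chr9:14859960-14860209 for Gpr83. For Foxp3 the stretch is limited to the 141 bases before any annotated exon.
Foxp3: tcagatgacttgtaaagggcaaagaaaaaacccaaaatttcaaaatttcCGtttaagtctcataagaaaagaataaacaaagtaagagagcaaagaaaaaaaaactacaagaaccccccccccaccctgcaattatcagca
Ctla4: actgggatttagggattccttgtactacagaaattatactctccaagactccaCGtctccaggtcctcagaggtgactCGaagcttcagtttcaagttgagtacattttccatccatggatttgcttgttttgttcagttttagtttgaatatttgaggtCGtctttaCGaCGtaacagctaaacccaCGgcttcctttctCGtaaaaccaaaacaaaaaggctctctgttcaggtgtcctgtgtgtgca
Nrp1: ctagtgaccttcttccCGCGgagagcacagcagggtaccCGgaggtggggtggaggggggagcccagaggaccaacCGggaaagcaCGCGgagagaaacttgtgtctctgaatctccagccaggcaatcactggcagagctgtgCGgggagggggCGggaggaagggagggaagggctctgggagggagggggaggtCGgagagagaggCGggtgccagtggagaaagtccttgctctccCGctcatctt
Gpr83: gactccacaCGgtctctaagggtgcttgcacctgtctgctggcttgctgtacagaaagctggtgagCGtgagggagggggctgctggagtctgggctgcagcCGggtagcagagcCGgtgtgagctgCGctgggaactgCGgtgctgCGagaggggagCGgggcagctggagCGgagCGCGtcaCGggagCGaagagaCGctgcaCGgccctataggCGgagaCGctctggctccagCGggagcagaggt
Over 32851 windows of this length the median held 6 CG dinucleotides and 52.4% G or C. The windows of Nrp1 (11 CG, 64.4%) and Gpr83 (18 CG, 66.8%) were above both medians, and that of Ctla4 (7 CG, 42.4%) was poorer in G and C. The forkhead core TGTTTAC, searched on both strands, was in 3.17% of all windows and in 0 of the 7 windows of these genes, which says only that these letters are absent there. The full 250-base Foxp3 window, of which the first 141 bases are shown, held 6 CG and 37.6% G or C. Among the windows not shown, Izumo1r held 50%, Capg 57.6% and the other window of Foxp3 46%. The windows shown are examples and do not compare called with uncalled genes.

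In WT mice all 9 genes were higher in spleen CD4 cells than in spleen CD8 cells. The count of 9 higher and 0 lower stands against 16.5% of 14131 tested genes called higher and 15.3% called lower (edgeR's quasi-likelihood test, adjusted p at most 0.05). Lrrc32, which encodes GARP, the protein that docks latent TGF-beta on the cell surface, had the largest difference, with 71.5 ± 7.72 CPM in CD4 and 0.925 ± 0.322 CPM in CD8 (means ± SD, n = 3; log2 6.22 ± 0.16, SE). Foxp3 stood at 118 ± 6.26 CPM in CD4 and 2.15 ± 1.06 CPM in CD8 (log2 5.73 ± 0.19). The smallest difference was that of Ctla4, the inhibitory receptor that competes with CD28 for its ligands, at 104 ± 13.6 CPM against 35.3 ± 2.15 CPM (log2 1.52 ± 0.09). The other 6 had log2 differences between 2.14 (Capg) and 3.58 (Nrp1), and the adjusted p of all 9 was at most 1.66e-07.

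Levels of different genes were compared per kilobase of exon. In WT spleen CD4 cells Izumo1r, which encodes the folate receptor family member FR4, was highest at 64.0 CPM per kilobase, with a range of 54.9 to 80.3 over 3 mice. Ctla4 followed at 44.7, then Foxp3 at 25.8, Ikzf2 at 24.4, Capg at 20.8, Lrrc32 at 15.2, Nrp1 at 11.8, Ikzf4 at 6.03 and Gpr83 at 4.09 CPM per kilobase. The ranges of Foxp3 (24.97 to 27.4) and Ikzf2 (21.6 to 28.3) overlapped, as did those of Ikzf2 and Capg (18.2 to 23.9), so the order within these pairs is not set. All other neighbours in the order were separate in all 3 mice.

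From DP to CD4 SP in the WT thymus, 7 of the 9 genes rose and 1 fell, where 21.7% of 11826 genes were called higher and 18.1% lower. The WT CD4 SP libraries also held DP-stage transcripts, with marker sums of 4239 to 6765 CPM against 11268 to 12792 CPM in WT DP. The part of these transcripts' cells in the differences was not tested. Izumo1r rose from 1.04 ± 0.543 to 42.1 ± 7.26 CPM (log2 5.26 ± 0.25, adjusted p = 9.83e-09). Ikzf4, the gene of the Ikaros-family factor Eos, rose from 0.745 ± 0.250 to 19.6 ± 4.72 CPM (log2 4.66 ± 0.26, adjusted p = 3.64e-08). Foxp3 itself rose less, from 2.13 ± 0.916 to 12.2 ± 2.07 CPM (log2 2.53 ± 0.28, adjusted p = 1.61e-05).

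Nrp1, which encodes neuropilin-1, a surface receptor for semaphorins and growth factors that marks thymus-derived regulatory T cells, was the gene that fell, from 42.0 ± 0.909 to 26.8 ± 2.74 CPM (log2 -0.66 ± 0.12, adjusted p = 7.69e-04). Ikzf2, the gene of the Ikaros-family factor Helios, stood at 92.0 ± 9.13 CPM in DP and 114 ± 25.9 CPM in CD4 SP (log2 0.30 ± 0.15, adjusted p = 0.132). With the mouse as a replicate block its estimate was 0.28 and was called (adjusted p = 0.0409). In WT thymus CD8 SP, which was counted in a separate table, Ikzf2 was at 215 ± 18.7 CPM and Nrp1 at 137 ± 6.24 CPM. These levels were not tested against those of the other table, and Prmt5 in WT also differed between the tables (144 ± 8.52 CPM in CD8 SP, 65.1 ± 4.84 in DP and 63.9 ± 5.69 in CD4 SP). Foxp3 was 2.204 ± 0.885 CPM in those same libraries. Within the DP and CD4 SP table, Nrp1 was thus higher in the population with less Foxp3, and Ikzf2 was not.

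**Figure D1:**
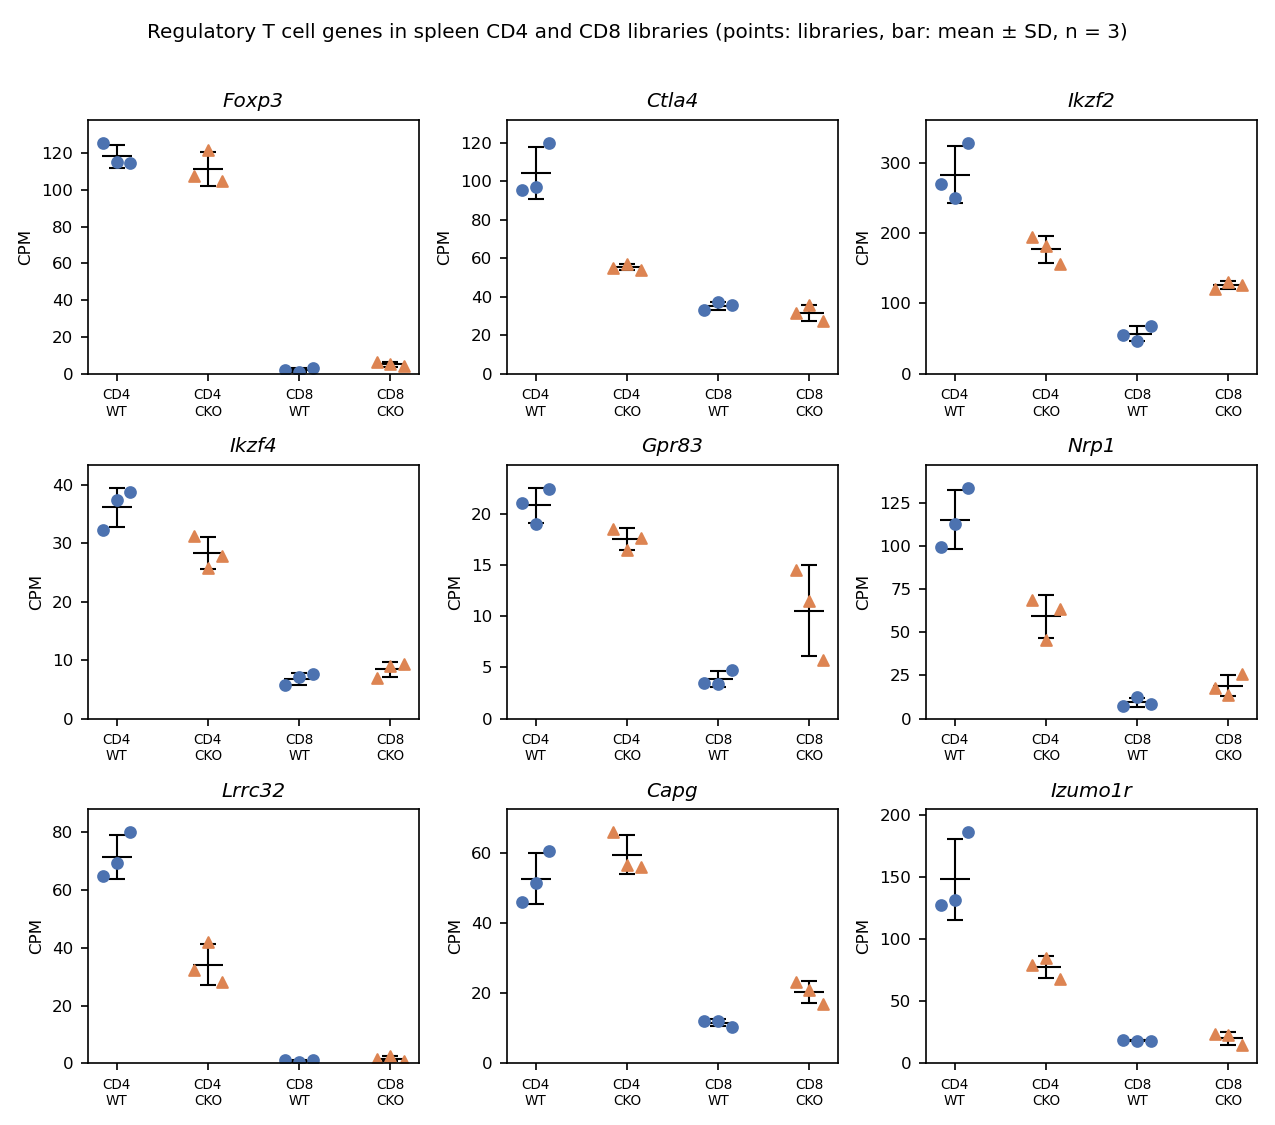
Levels of the 9 genes (CPM, linear axis from 0) in spleen CD4 and CD8 libraries. Points are libraries (circles WT, triangles CKO), and bars give the mean ± SD over 3 mice. In CD4 cells the WT and CKO points are separate for 7 genes and overlap for Foxp3 and Capg. In CD8 cells the CKO points lie above all WT points for Foxp3, Ikzf2, Gpr83, Nrp1 and Capg.

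In spleen CD4 cells most genes of the group fell in CKO, while Foxp3 itself gave no call. Of the 9 genes 0 were higher and 6 were lower, where 8.53% of 14292 genes were called higher and 5.63% lower. The 6 were Ctla4, Lrrc32, Nrp1, Izumo1r, Ikzf2 and Ikzf4. The median log2 fold change (CKO over WT) of the 9 was -0.67, against -0.01 over all genes tested.

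Foxp3 was at 125, 115 and 114 CPM in WT 67, 70 and 71 and at 107, 122 and 105 CPM in CKO 65, 68 and 72. CKO 68 lay above 2 of the WT libraries, so the groups overlapped. The log2 fold change was -0.08 ± 0.08 (adjusted p = 0.564), and it stayed between -0.16 and -0.03 when single libraries were left out.

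Its Ikaros-family partners were lower. Ikzf2 was at 270, 250 and 328 CPM in WT and at 194, 181 and 156 CPM in CKO (log2 -0.67 ± 0.10, adjusted p = 0.00115). The highest CKO library was below the lowest WT library. Ikzf4 was at 32.3, 37.4 and 38.7 CPM in WT and at 31.2, 25.8 and 27.8 CPM in CKO (log2 -0.34 ± 0.10, adjusted p = 0.0352). The Ikzf4 groups were separate by a narrow gap, between CKO 65 and WT 67. Its call was lost without WT 70, WT 71, CKO 68 or CKO 72 (adjusted p from 0.0888 to 0.139) and in a fit over all 12 spleen libraries (0.0948), so it is the least firm of the 6.

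Among the surface proteins, Lrrc32 had the largest decrease. Its level was 64.96, 69.5 and 80.0 CPM in WT and 32.3, 42.0 and 28.3 CPM in CKO, and the CKO mean was 0.479 of the WT mean (log2 -1.05 ± 0.13, adjusted p = 3.29e-04). The highest CKO library, CKO 68, was well below the lowest WT library. Ctla4 was at 95.7, 97.1 and 120 CPM in WT and at 55.1, 57.0 and 54.1 CPM in CKO (log2 -0.90 ± 0.09, adjusted p = 5.82e-05). The 3 CKO values were close to each other, and WT 71 was the highest library for both genes.

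Nrp1 was at 99.2, 113 and 134 CPM in WT and at 68.7, 45.4 and 63.3 CPM in CKO (log2 -0.95 ± 0.13, adjusted p = 7.55e-04). Izumo1r was at 127, 132 and 186 CPM in WT and at 79.6, 85.2 and 67.9 CPM in CKO (log2 -0.92 ± 0.13, adjusted p = 7.49e-04). Neither gene overlapped between the genotypes, and WT 71 was again the highest library. For Ctla4, Ikzf2, Lrrc32, Nrp1 and Izumo1r the call held in all 6 alternative fits and whichever single library was left out.

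The 2 remaining genes gave no call. Gpr83, which encodes a G protein-coupled receptor found on regulatory T cells, was at 21.02, 19.0 and 22.5 CPM in WT and at 18.5, 16.5 and 17.6 CPM in CKO (log2 -0.24 ± 0.11, adjusted p = 0.164). Its groups did not overlap. Capg, the gene of an actin filament capping protein, was at 46.0, 51.3 and 60.3 CPM in WT and at 65.8, 56.5 and 55.9 CPM in CKO (log2 0.19 ± 0.10, adjusted p = 0.232), with overlap. Counted by overlap alone, 7 of the 9 genes had all CKO libraries below all WT libraries and 0 had them above, where each pattern held for 16.5% of all genes tested.

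Set against Foxp3 in the same library, 5 of the other genes were separate between the genotypes. Foxp3 itself differed little between the genotypes, so these ratios largely restate the decreases above. The share of all genes that separate in this way is not given here. Per 100 Foxp3 counts, WT spleen CD4 libraries held 88.6 ± 14.8 counts of Ctla4 and CKO libraries 50.02 ± 2.71. For Lrrc32 the values were 60.7 ± 9.11 and 30.6 ± 3.79, for Nrp1 98.0 ± 18.9 and 54.0 ± 14.5, and for Izumo1r 126 ± 32.4 and 69.8 ± 4.68. Ikzf2 went from 240 ± 40.7 to 160 ± 18.3. The genotypes did not overlap for these 5 genes, and they overlapped for Ikzf4, Gpr83 and Capg. These ratios are a description with no test of their own, and part of each gene's RNA comes from cells without Foxp3.

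**Figure D2:**
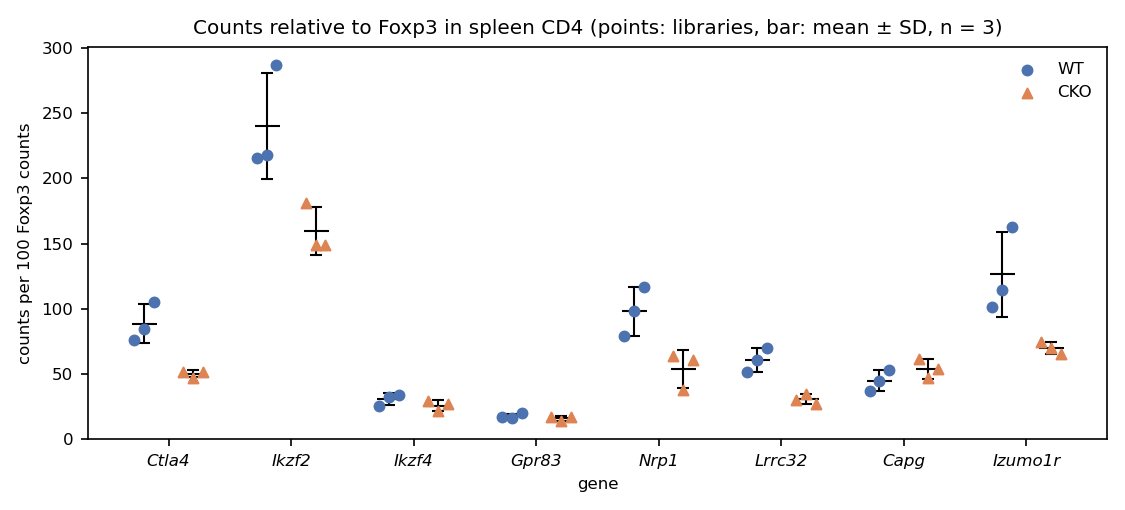
Counts of 8 genes per 100 counts of Foxp3 in the same spleen CD4 library (linear axis from 0). Points are libraries (circles WT, triangles CKO), and bars give the mean ± SD over 3 mice. Ctla4, Ikzf2, Nrp1, Lrrc32 and Izumo1r are lower in all 3 CKO libraries, for example 88.6 ± 14.8 against 50.02 ± 2.71 for Ctla4, while Gpr83 and Capg overlap.

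Transcripts used as markers of other cells moved with the genotype in these CD4 libraries. Which cells carried them was not tested. All 10 myeloid markers were higher in CKO, with a sum of 74.1 to 106 CPM in WT and 125 to 275 CPM in CKO. Of 7 platelet and megakaryocyte markers 2 were tested and both were higher (sums of 155 to 185 and 279 to 327 CPM), carried mainly by Itgb3, while Pf4, a defining platelet gene, was at 0 in all 6 libraries. Of 8 B cell markers 7 were tested, with Cd22 the 1 that was lower (sums of 28.8 to 34.1 and 16.1 to 22.2 CPM). Of 3 CD8-lineage markers 1, Cd8b1, was called higher (sums of 13.5 to 17.99 CPM in WT and 23.2 to 25.3 CPM in CKO). Among 6 natural killer markers 5 were tested, with 2 higher and 1 lower (sums of 31.4 to 34.9 and 34.5 to 46.0 CPM). Cd4 itself was at 860 to 873 CPM in WT and 892 to 982 CPM in CKO. The part of these shifts in the decrease of the regulatory T cell genes was not tested.

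Further genes of regulatory T cells, grouped in 5 lists by role, moved in both directions in spleen CD4. Of 69 such genes 68 were tested, and 10 were higher and 21 lower, against the 8.53% and 5.63% of all genes. In the IL-2 receptor and STAT5 list, which holds the cytokine signal that these cells depend on, 3 of 12 rose, 3 fell and 6 did not pass. Il2ra, the gene of the high-affinity receptor chain CD25, was at 83.3 ± 0.446 CPM in WT and fell to 58.7 ± 8.58 CPM in CKO (log2 -0.50 ± 0.09, adjusted p = 0.00347). Stat5a fell from 156 ± 6.67 to 117 ± 12.3 CPM. Il7r, the IL-7 receptor gene that regulatory T cells carry at low levels, rose from 532 ± 52.0 to 704 ± 61.4 CPM (log2 0.41 ± 0.08, adjusted p = 0.00720), and the survival gene Bcl2 rose from 282 ± 13.5 to 352 ± 27.4 CPM.

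Of 23 transcription factors that work with Foxp3 or are used by these cells, 1 rose, 6 fell and 16 did not pass. Plagl1 fell from 18.9 ± 8.27 to 3.57 ± 0.541 CPM (log2 -2.39 ± 0.28, adjusted p = 2.16e-04). Maf, a factor of IL-10 producing and follicular cells, fell from 108 ± 25.01 to 52.6 ± 11.4 CPM, and Nfatc1, a calcium-driven partner of Foxp3, fell from 303 ± 14.2 to 217 ± 14.5 CPM. Ikzf3, the gene of the Ikaros-family factor Aiolos, was the 1 that rose, from 278 ± 6.09 to 342 ± 14.1 CPM.

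In the list of TNF receptors and costimulatory molecules 1 of 10 rose, 6 fell and 3 did not pass. Icos, a costimulatory receptor, fell from 53.9 ± 5.41 to 32.6 ± 2.32 CPM (log2 -0.71 ± 0.09, adjusted p = 3.84e-04). Tigit, an inhibitory receptor, fell from 44.5 ± 11.2 to 21.5 ± 1.72 CPM and Tnfrsf1b, the TNF receptor 2 gene, from 169 ± 29.4 to 109 ± 7.79 CPM. Tnfrsf25, the gene of death receptor 3, rose from 65.1 ± 4.66 to 124 ± 14.8 CPM (log2 0.94 ± 0.09, adjusted p = 4.04e-05), so the list did not move 1 way.

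Suppressive mediators held the largest decreases. Of 11 tested 1 rose, 4 fell and 6 did not pass. Il10 fell from 9.89 ± 3.33 to 1.06 ± 0.214 CPM (log2 -3.21 ± 0.29, adjusted p = 4.04e-05). Lag3, an inhibitory receptor for MHC class II, fell from 25.6 ± 12.1 to 4.48 ± 0.236 CPM. Nt5e, the gene of the ectoenzyme CD73, fell from 105 ± 13.9 to 51.7 ± 12.1 CPM, and Itgb8, an integrin chain that activates TGF-beta, from 8.44 ± 2.75 to 3.10 ± 0.621 CPM.

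Of 12 genes in a list of other markers, most of them surface proteins, 4 rose, 2 fell and 6 did not pass. Klrg1, a receptor of terminally differentiated cells, rose from 7.11 ± 1.11 to 23.2 ± 5.57 CPM (log2 1.72 ± 0.19, adjusted p = 1.48e-04). Itgae, the gene of the integrin CD103, rose from 9.45 ± 2.55 to 19.0 ± 2.39 CPM. Ptger4, a prostaglandin E receptor gene, fell from 109 ± 1.85 to 81.2 ± 1.65 CPM. Genes of these lists are active in many CD4 cells besides regulatory T cells.

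In spleen CD8 cells, where all 9 genes had lower levels in WT than in CD4 cells, several rose in CKO. Of the 9 genes 5 were higher and 0 lower in CKO, where 9.83% of 13917 genes were called higher and 6.22% lower. The 5 were Ikzf2, Capg, Gpr83, Nrp1 and Foxp3, and the median log2 fold change of the 9 was 0.78, against -0.01 over all genes. In each of these 5 genes the 3 CKO libraries lay above the 3 WT libraries, a pattern that 20.1% of all genes showed, and 14.5% showed the reverse.

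Ikzf2 had the clearest rise. It was at 55.3, 47.3 and 68.4 CPM in WT and at 120, 131 and 127 CPM in CKO (log2 1.12 ± 0.12, adjusted p = 2.46e-04), with a wide gap between the groups. Capg was at 12.2, 12.2 and 10.5 CPM in WT and at 23.1, 20.8 and 16.95 CPM in CKO (log2 0.78 ± 0.13, adjusted p = 0.00296). Both calls held whichever library was left out.

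Gpr83 was at 3.46, 3.38 and 4.72 CPM in WT and at 14.5, 11.4 and 5.74 CPM in CKO (log2 1.43 ± 0.29, adjusted p = 0.00811). CKO 72 was near the WT range, and the call was lost without WT 67 (adjusted p = 0.0508). Nrp1 was at 7.28, 12.3 and 8.46 CPM in WT and at 17.8, 13.5 and 25.5 CPM in CKO (log2 0.997 ± 0.24, adjusted p = 0.0188). The gap between CKO 68 and WT 70 was small, and leaving out WT 67, WT 71 or CKO 72 ended this call (adjusted p from 0.0752 to 0.0943).

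Foxp3 in CD8 cells rested on few reads, with 54, 31 and 87 counts in WT and 173, 132 and 103 in CKO. These are 1.99, 1.19 and 3.28 CPM in WT and 6.58, 5.10 and 4.05 CPM in CKO (log2 1.25 ± 0.33, adjusted p = 0.0275). The groups did not overlap, but the call was lost without WT 67, WT 70, CKO 65 or CKO 68 (adjusted p from 0.0539 to 0.109). The highest CD8 library still held far less Foxp3 than the lowest CD4 library, at 104.5 CPM.

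Transcripts used as markers of other cells were measured in these libraries too. Their sums do not tell whether other cells or the CD8 cells themselves carried them. Cd4 was at 1.80, 1.92 and 13.4 CPM in WT 67, 70 and 71 and at 3.19, 2.59 and 3.03 CPM in CKO 65, 68 and 72. WT 71, with the most Cd4, also had the most Foxp3 among the WT libraries. The summed CD4-lineage markers (3 genes) overlapped between genotypes, at 8.02 to 22.9 CPM in WT and 10.7 to 18.1 CPM in CKO, although Zbtb7b, the CD4-lineage factor among them, was called higher in CKO (5.19 ± 0.806 to 10.7 ± 2.85 CPM). Natural killer markers (6 genes, 4 called higher) summed to 104 to 133 CPM in WT and 189 to 364 CPM in CKO, and myeloid markers (10 genes, 4 called higher) to 21.6 to 31.6 and 44.2 to 70.8 CPM. Platelet and megakaryocyte markers (7 genes, both of the 2 tested called higher) summed to 35.8 to 36.2 CPM in WT and 72.1 to 84.2 CPM in CKO, with Pf4 at 0 in all 6 libraries. B cell markers (8 genes, 1 of 7 tested called higher, Cd22) summed to 31.5 to 40.1 and 53.7 to 63.6 CPM. The part of these shifts in the rise of the 5 genes was not tested.

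The other 4 genes gave no call in CD8 cells. Ctla4 was at 32.9, 37.0 and 36.0 CPM in WT and at 31.6, 35.7 and 27.3 CPM in CKO (log2 -0.19 ± 0.11, adjusted p = 0.290). Izumo1r was at 17.9 to 19.1 CPM in WT and 14.4 to 23.6 CPM in CKO (adjusted p = 0.705), and Ikzf4 at 5.66 to 7.55 and 6.88 to 9.28 CPM (adjusted p = 0.331). Lrrc32 was near the limit of detection, at 0.575 to 1.21 CPM in WT and 0.747 to 2.63 CPM in CKO (log2 0.78 ± 0.47, adjusted p = 0.306). All 4 overlapped between genotypes.

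Of the 5 lists of related genes, 63 of 69 members were tested in spleen CD8, and 15 were higher and 6 lower, against the 9.83% and 6.22% of all genes. The share that was lower is thus not far from that of all genes. The IL-2 receptor and STAT5 list had 6 higher and 1 lower of 12. Socs2, a feedback inhibitor of cytokine signalling, rose from 0.365 ± 0.123 to 3.98 ± 1.26 CPM (log2 3.41 ± 0.37, adjusted p = 2.76e-04), and Il2rb, the shared IL-2 and IL-15 receptor chain, from 648 ± 36.2 to 930 ± 102 CPM. Cish, another feedback inhibitor, rose from 12.7 ± 4.38 to 26.3 ± 5.34 CPM, and Il2ra from 3.24 ± 0.350 to 5.62 ± 0.794 CPM.

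Among the 23 transcription factors 2 rose and 3 fell, where 9.83% of all genes were called higher and 6.22% lower. Prdm1, the gene of the effector factor Blimp-1, rose from 10.1 ± 2.13 to 29.4 ± 9.44 CPM and Ikzf3 from 347 ± 24.6 to 595 ± 27.03 CPM. Lef1 and Tcf7, factors of naive cells, fell from 581 ± 12.4 to 433 ± 39.9 CPM and from 1225 ± 56.3 to 956 ± 99.4 CPM. Of 8 suppressive mediators tested 2 rose, Fgl2 from 5.41 ± 0.903 to 26.6 ± 6.87 CPM and Entpd1, the gene of the ectoenzyme CD39, from 4.43 ± 1.25 to 14.9 ± 4.47 CPM. Tnfrsf25 and Tigit were the 2 that rose among the 10 TNF receptors and costimulatory molecules. Of 10 genes tested from the list of other markers 3 rose and 2 fell. Those that rose were Swap70 (6.19 ± 0.282 to 17.2 ± 0.824 CPM), Cd44, a receptor of antigen-experienced cells (82.0 ± 4.30 to 133 ± 15.7 CPM), and Klrg1 (3.83 ± 2.57 to 16.4 ± 4.16 CPM). Among those that fell was S1pr1, the receptor for egress from lymphoid organs (699 ± 32.3 to 462 ± 39.9 CPM).

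The difference between the genotype effects in CD4 and CD8 cells was tested in a model over the 12 spleen libraries. For 7 of the 9 genes the effect was lower in CD4 than in CD8 and for 0 it was higher, where 1.81% and 0.749% of 14958 genes were called. Nrp1 had the largest difference (log2 -1.95 ± 0.31, adjusted p = 0.00266), followed by Lrrc32 (-1.83 ± 0.44, 0.0368), Ikzf2 (-1.79 ± 0.17, 1.50e-04) and Gpr83 (-1.66 ± 0.33, 0.0126). For Foxp3 the difference was -1.33 ± 0.29 (adjusted p = 0.0229), for Izumo1r -1.03 ± 0.23 (0.0240) and for Ctla4 -0.71 ± 0.14 (0.0127). Both populations came from the same mice, and with the mouse as a replicate block Ikzf4 (-0.63, adjusted p = 0.0332) and Capg (-0.58, 0.0162) were called too, making 9 of 9. Without the block these had an adjusted p of 0.121 and 0.0813. The calls of Lrrc32 (8 of 12 fits), Izumo1r (6 of 12) and Foxp3 (4 of 12) were lost when single libraries were left out, and voom lost Lrrc32 (0.190) and Izumo1r (0.0616). Without CD8 WT 67, CD8 WT 70 or CD4 CKO 72 the count fell to 4.

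**Figure D3:**
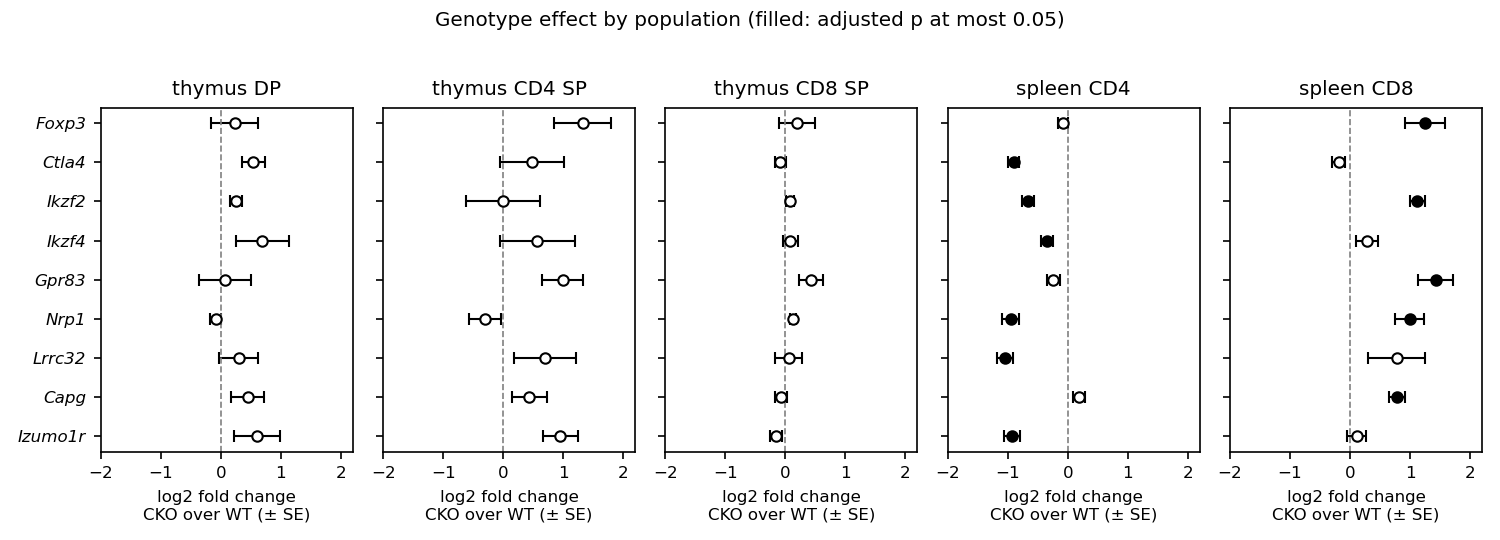
Log2 fold change of CKO over WT (± SE) for the 9 genes in each of the 5 populations, from edgeR. Filled points have an adjusted p of at most 0.05. Filled points lie below 0 for 6 genes in spleen CD4 and above 0 for 5 genes in spleen CD8, and all thymus points are open.

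In thymus CD4 SP cells, where new regulatory T cells arise, no gene of the group passed the test. Prmt5, the deleted gene, gave no call there either (log2 -0.99 ± 0.27, adjusted p = 0.958 in edgeR), so missing calls do not show missing changes. edgeR called 0 of the 9 in either direction, as for all 11839 genes tested (0% higher and 0% lower), and DESeq2 and limma voom also called 0 of the 9. At an unadjusted p under 0.05 there were 3, Foxp3, Gpr83 and Izumo1r. The share of all genes under that p is not given here, so no weight can be put on this count. The median log2 fold change of the 9 was 0.57, against 0.02 over all genes, and 8 of the 9 estimates were positive.

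Foxp3 was at 12.2, 14.3 and 10.2 CPM in WT 15, 18 and 24 and at 16.0, 53.9 and 19.0 CPM in CKO 14, 17 and 23 (log2 1.33 ± 0.47, adjusted p = 0.958). The groups did not overlap, and CKO 17 stood far above the other 5 libraries. Izumo1r was at 35.9, 50.1 and 40.4 CPM in WT and at 71.5, 106 and 55.8 CPM in CKO (log2 0.95 ± 0.29). Gpr83 was at 8.79, 8.23 and 8.90 CPM in WT and at 10.8, 25.5 and 13.5 CPM in CKO (log2 0.99 ± 0.34). In these 3 genes all CKO libraries lay above all WT libraries, as they did for 3.93% of all genes, with 6.12% the other way.

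CKO 17 had the highest level of 7 of the 9 genes among the 6 CD4 SP libraries, and it was also the library with the least Cd8a and the lowest DP-marker sum. Without it the estimates were 0.59 for Foxp3, 0.56 for Gpr83 and 0.70 for Izumo1r. CKO 14, with the most Cd8a, was the lowest library for Ctla4, Ikzf2, Ikzf4 and Lrrc32. For Foxp3, Izumo1r and Gpr83 it lay above all WT libraries. Ikzf2 was at 23.2 CPM in CKO 14, at 154 and 159 CPM in CKO 17 and 23, and at 91.6 to 142 CPM in WT. In DP cells Ikzf2 was at 83.0 to 101 CPM in WT and 97.2 to 119 CPM in CKO, so CKO 14 was below both populations. Lrrc32 was at 6.99 CPM in CKO 14, at 35.4 and 20.5 CPM in CKO 17 and 23, and at 11.0 to 16.7 CPM in WT.

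The CKO libraries thus spread more widely than the WT libraries. Ctla4 was at 13.2, 70.2 and 56.9 CPM in CKO and 24.9 to 40.4 CPM in WT (log2 0.49 ± 0.54), and Ikzf4 at 6.99, 53.7 and 24.5 CPM and 15.4 to 24.7 CPM (log2 0.57 ± 0.62). Capg was at 21.7 to 35.9 CPM in CKO and 18.4 to 28.5 CPM in WT (log2 0.44 ± 0.29). Nrp1 was at 15.4 to 24.4 CPM in CKO and 24.01 to 29.5 CPM in WT (log2 -0.30 ± 0.26), lowest in CKO 17. Summed mature-stage markers (10 genes) ran from 3076 to 4654 CPM in WT and from 3573 to 7914 CPM in CKO. The part of these stage differences in the levels was not tested. Of the 69 related genes 65 were tested and 0 were called, with Tnfrsf9, the costimulatory receptor 4-1BB, at 22.5 ± 1.38 CPM in WT and 47.0 ± 17.4 CPM in CKO (adjusted p = 0.958).

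**Figure D4:**
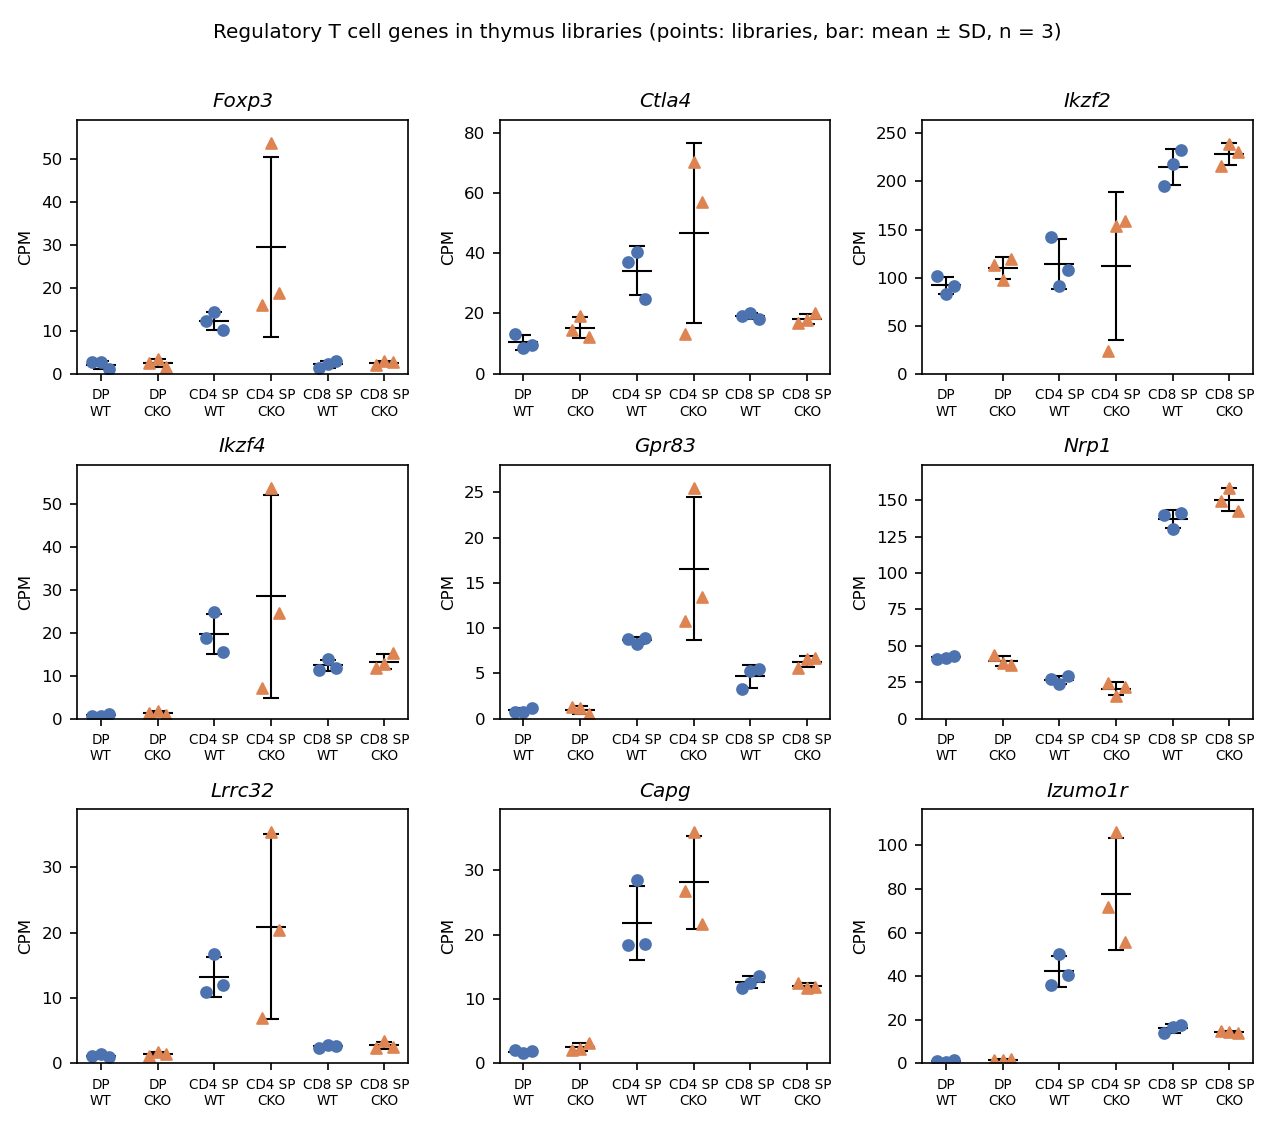
Levels of the 9 genes (CPM, linear axis from 0) in thymus DP, CD4 SP and CD8 SP libraries. Points are libraries (circles WT, triangles CKO), and bars give the mean ± SD over 3 mice. The CKO libraries of CD4 SP spread widely, with Foxp3 at 16.0, 53.9 and 19.0 CPM, and the CD8 SP values come from a separate count table.

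In thymus DP cells 0 of the 9 genes were called higher and 0 lower, where edgeR called 0.0172% of 11634 genes higher and 0.00860% lower. DESeq2 and limma voom called 0 of the 9 too. An unadjusted p under 0.05 was seen for 2 genes, Ctla4 and Ikzf2, again without the share of all genes to set beside it. Ctla4 was at 13.0, 8.59 and 9.53 CPM in WT and at 14.7, 19.1 and 12.1 CPM in CKO (log2 0.54 ± 0.19, adjusted p = 0.660). Ikzf2 was at 101, 83.0 and 91.6 CPM in WT and at 113, 97.2 and 119 CPM in CKO (log2 0.25 ± 0.09, adjusted p = 0.668). Both overlapped between genotypes. Foxp3 had 20 to 49 counts per library, at 1.08 to 2.69 CPM in WT and 1.58 to 3.47 CPM in CKO. Capg was the 1 gene without overlap, at 1.53 to 2.02 CPM in WT and 2.11 to 3.22 CPM in CKO, where 6.58% of all genes had the CKO libraries above and 5.47% below.

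The model over the 12 libraries of DP and CD4 SP called 0 of the 9 genes for a difference between the 2 genotype effects, in each of edgeR, DESeq2 and limma voom, with 0 of the 9 at an unadjusted p under 0.05 in edgeR. It called 0% of 12216 genes in either direction. The estimate for Foxp3 was 1.09 ± 0.70 and that for Gpr83 was 0.90 ± 0.56.

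In thymus CD8 SP cells, too, 0 of the 9 genes were called by edgeR, DESeq2 or limma voom, where edgeR called 0.0335% of 14911 genes higher and 0.0805% lower. Nrp1 alone had an unadjusted p under 0.05, and here too the share of all genes is not given. Nrp1 was at 140, 130 and 141 CPM in WT 1, 2 and 3 and at 150, 159 and 143 CPM in CKO 1, 2 and 3 (log2 0.12 ± 0.05, adjusted p = 0.449). The CKO libraries of Nrp1 lay just above the WT libraries, as did those of Gpr83, at 3.22 to 5.50 CPM in WT and 5.60 to 6.72 CPM in CKO (log2 0.42 ± 0.20, adjusted p = 0.520). That pattern held for 8.85% of all genes, and its reverse for 6.88%. Foxp3 was at 1.25 to 2.99 CPM in WT and 2.04 to 2.89 CPM in CKO, Ikzf2 at 195 to 232 and 216 to 239 CPM, and Ctla4 at 18.2 to 20.1 and 16.7 to 20.1 CPM, all with overlap. Sex was not balanced between these genotypes, and with sex as a covariate the estimates of Foxp3, Ikzf2, Ikzf4 and Lrrc32 turned from positive to negative, none of them called.

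Across the 12 spleen libraries the genes whose log2 levels ran most like that of Foxp3, out of 14958, were Zfp467 (Pearson's r 0.997), Nav2 (0.992), Dst (0.989), Zbtb7b (0.989) and Ly6c1 (0.989). These points share libraries and fall into CD4 and CD8 clusters, so the values mainly describe that split and carry no test. Within the group r ran from 0.979 for Lrrc32 to 0.827 for Ctla4. Levels of Zfp467, a zinc finger gene, were 21.8 CPM in WT and 22.8 CPM in CKO spleen CD4 cells, and 3.22 and 4.48 CPM in CD8 cells. Like Foxp3, it had close means of the 2 genotypes in CD4, whereas Dst, a cytoskeletal linker gene, was at 51.2 and 39.1 CPM there.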

How the data were processed

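Bulk RNA was measured in 30 libraries of 5 sorted populations. The authors deposited raw read counts per gene in 3 tables, made with HISAT2, HTSeq and GRCm38 per the submitters' processing notes. Tool versions, gene models and the strand setting were not given in the sources used here. Groups and mouse numbers came from the sample titles, and CPM are counts scaled to 1000000 gene counts per library.

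CKO and WT were compared within the 6 libraries of a population with edgeR 4.0.16 in R 4.3.3 (filterByExpr defaults, TMM scaling, quasi-likelihood test, Benjamini-Hochberg adjustment over all genes tested, threshold 0.05). SE stands for the size of the log2 fold change over the root of its F value. Differences between genotype effects were tested as an interaction over 12 libraries. Tests ran within a table only, and p-values of CKO against WT within a population measure the spread between 3 mice. The main tests between populations and of the differences between genotype effects treated libraries of the same mouse as independent. The mouse entered them only as a block in an alternative. The test was tried on simulated counts. Alternatives were DESeq2 1.42.0, limma 3.58.1 voom with quality weights, DESeq2 size factors, no filter, 5 CPM in 3 libraries, all 12 libraries of a table, sex as a covariate, a replicate block, and each library left out.

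Mouse numbers link spleen CD4 with CD8 and thymus DP with CD4 SP, per the labels. Deviations from group means correlated at 0.0963 to 0.457 between libraries of 1 mouse in the spleen (other mice -0.343 to -0.000399) and -0.213 to 0.218 in the thymus (other mice -0.227 to 0.215). Exon lengths and positions are from GENCODE on GRCm38, and start regions from RefSeq.

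The 9 genes, the further lists and the rule for named genes were chosen with earlier results of these data known. The rule names all 9 genes and, from each further list and comparison, at most 4 called genes with the smallest p, or otherwise at most 2. For likeness to Foxp3 it names the 5 genes with the highest Pearson's r of log2 CPM (prior count 2). Of the genes that the rule takes from the further lists only part is named in the text, and 1 of them is not reported here.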

Additional observations from a re-analysis of the deposited data

Results flagged for a closer look

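The genotype effect differed between spleen CD4 and spleen CD8 cells for 7 genes, by the test of that difference in edgeR (log2 effect in CD4 minus that in CD8). The values were -1.33 for Foxp3, -0.71 for Ctla4, -1.79 for Ikzf2, -1.66 for Gpr83, -1.95 for Nrp1, -1.83 for Lrrc32 and -1.03 for Izumo1r, with adjusted p from 1.50e-04 to 0.0368. With single libraries left out, the call was lost in 8 of 12 fits for Lrrc32, 6 for Izumo1r and 4 for Foxp3. Voom called neither Lrrc32 nor Izumo1r. For Ikzf2 and Nrp1 the gene was called in both populations, in opposite directions. For Ctla4, Lrrc32 and Izumo1r it was called only in CD4, and for Foxp3 and Gpr83 only in CD8.

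For 3 genes all CKO libraries lay above all WT libraries in a thymus population and below them in spleen CD4. These differences were not tested because the counts come from separate tables. Of all genes, 3.93% lay above in thymus CD4 SP, 8.85% above in thymus CD8 SP and 16.5% below in spleen CD4. The share with both patterns is not given here. Without CKO 17 the log2 estimates in thymus CD4 SP were 0.56 for Gpr83 and 0.70 for Izumo1r. The CKO mean of Gpr83 was 1.92 times the WT mean in thymus CD4 SP and 1.35 times in thymus CD8 SP, against 0.842 times in spleen CD4. That of Izumo1r was 1.85 times the WT mean in thymus CD4 SP and 0.523 times in spleen CD4. That of Nrp1 was 1.096 times in thymus CD8 SP and 0.513 times in spleen CD4. None of the 3 genes was called in the thymus.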

How the results depend on the processing

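Each of these genes that was called in spleen CD4 or CD8 kept its direction in every alternative run. Leaving out single libraries gave 5 to 6 genes lower in spleen CD4, 2 to 4 higher in spleen CD8 (2 without WT 67) and 4 to 8 lower in the spleen difference of effects. In the spleen the replicate block added Ikzf4 and Capg to that difference and changed no other call; DESeq2 (adjusted p 0.0461 and 0.0216) and no filter (0.0335 and 0.00498) added the same 2. In thymus CD8 SP, where same-numbered WT and CKO libraries correlated at 0.0397 to 0.138 and others at -0.127 to 0.000313, the numbers are only shared labels, and the replicate block left 0 genes called.

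Estimates that changed sign were not called under any fit. For Ikzf2 in thymus CD4 SP the estimate was -0.00027 with all 12 libraries and -0.033 with sex as a covariate. In thymus CD8 SP sex as a covariate gave -0.13 for Foxp3, -0.0074 for Ikzf2, -0.082 for Ikzf4 and -0.18 for Lrrc32. For the thymus difference of effects voom gave 0.26 for Ctla4, 0.088 for Ikzf2 and 0.089 for Ikzf4. With single libraries left out, estimates ran across 0 in thymus DP for Foxp3 (-0.11 to 0.47) and Gpr83 (-0.19 to 0.39), in thymus CD4 SP for Ikzf2 (-0.32 to 0.46) and Ikzf4 (-0.28 to 1.01), and in thymus CD8 SP for Foxp3 (-0.093 to 0.47), Ikzf4 (-0.021 to 0.18) and Lrrc32 (-0.13 to 0.16). They did so in spleen CD8 for Izumo1r (-0.0080 to 0.29). In the thymus difference the ranges were -0.24 to 0.19 for Capg, -0.50 to 0.37 for Ctla4, -0.57 to 0.22 for Ikzf2, -1.004 to 0.34 for Ikzf4, -0.16 to 0.60 for Izumo1r and -0.23 to 0.81 for Lrrc32. The cause was not tested. Few reads limit Foxp3 and Lrrc32 in DP and CD8 cells. In DP they also limit Gpr83 (8 to 23 counts), Ikzf4 (7 to 26) and Izumo1r (7 to 30). A sex covariate could not be fitted in the spleen, where all libraries were female. The filter of 5 CPM in 3 libraries gave no value for Foxp3 and Lrrc32 in spleen CD8 and thymus CD8 SP, nor for Foxp3, Lrrc32, Capg, Gpr83, Ikzf4 and Izumo1r in thymus DP.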
